A study of Mus musculus with 12 samples.

Results

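Collagens are the triple-helical proteins of the extracellular matrix, each built from 3 alpha chains, with a gene for each kind of chain. Fibril-forming collagens give tissue its tensile strength, type IV collagen makes the sheet of basement membranes, and other types sit on fibrils, in beaded filaments or across the cell membrane. In brain most collagen lies in the meninges, around vessels and in basement membranes, while a few collagens are made by neurons. The collagen genes described here were all genes whose array name is Col, a number, the letter a and a number, with Col8a1 not included. They numbered 43 of the 37306 gene names on the array, and each was read from the brightest of its probes, the one with the highest mean signal over the 12 arrays.

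The study set 3 double-knockout mice against 3 control mice, with 2 regions dissected from each. DKO mice were ChatCre-PS1flox/flox-PS2-/-: they carried Cre recombinase driven by Chat, floxed alleles of the presenilin PS1 and no PS2 (Psen2). Con mice were Cre--PS1flox/flox-PS2+/-: they carried the same floxed alleles, had no Cre and kept 1 copy of PS2. Cre driven by Chat acts in cholinergic cells, so in bulk tissue most cells keep floxed PS1 in DKO mice too, while PS2 is missing from all their cells. The question of the comparison is what the loss of presenilins does to RNA in the cortex and in the basal forebrain, a seat of cholinergic cell bodies. The mice were 2 months old and labelled male. Tissue was snap-frozen after cervical dislocation, and each of the 12 RNA samples was read on 1 array in 1 colour.

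The arrays were alike in quality, with 68.9% to 75% of probes well above background and correlations of 0.988 to 0.995 between arrays of a group. Psen2 separated the genotypes, lying between -1.86 and -1.25 on the 6 DKO arrays and between 0.25 and 0.50 on the 6 Con arrays. These levels, and all others below, are log2 intensities minus the 75th percentile of their array, so that 0 is that percentile. Chat lay between -0.08 and 0.26 in DKO basal forebrain and between -0.30 and 1.00 in Con basal forebrain, and at most -1.34 on every cortex array. DKO mice 1 and 3 went against their label: Xist, which is transcribed from the inactive X of females, lay between -2.32 and -1.53 on their 4 arrays, against -8.49 and -8.28 in DKO mouse 2 and at most -6.48 in Con mice. Slide and genotype overlapped in cortex. Slide 1 held all 6 arrays of basal forebrain together with cortex of DKO mice 1 and 2, and slide 2 held cortex of DKO mouse 3 and of the 3 Con mice.

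Of the 43 collagen genes 39 entered every comparison, because 1 group or more had their probe well above background on each of its 3 arrays. Col15a1, Col28a1, Col4a3 and Col6a6 did not. Col15a1, the partner of Col18a1 in the multiplexin group, was above background on 2 DKO and 1 Con array of basal forebrain and on no cortex array. Col4a3, a chain of the kidney and lens type of basement membrane, was above it on 1 DKO cortex array alone, and the probes read for the other two on none of the 12. A dimmer Col28a1 probe was above background on 1 array. The 39 genes were 11 fibril-forming chains, 5 of the 6 type IV chains, 5 of the 6 type VI chains, 9 fibril-associated collagens, 4 membrane-spanning collagens, Col18a1 and 4 others.

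Basal forebrain and cortex differed in their collagen RNA in both genotypes, and most collagen genes that differed were higher in basal forebrain. In DKO mice 20 of 39 passed (limma over all genes, Benjamini-Hochberg adjusted p under 0.05), 16 higher and 4 lower in basal forebrain, against a background of 38.3% of all 26959 genes tested, 18.5% higher and 19.8% lower. Among Con mice 24 of 39 passed, 21 higher and 3 lower, against 48.4% of all genes, 18.4% higher and 30% lower. The median difference over the 39 genes was 0.63 in DKO and 0.61 in Con mice, beside -0.04 and -0.09 over all genes. With each array set against its median in place of the 75th percentile, the DKO calls were 12 higher and 6 lower, 18 of 39 where 48.9% of all genes passed. The DKO median over the collagen genes was then 0.35 and that of all genes -0.33, and the Con medians were 0.50 and -0.21. Col4a2, Col4a5, Col5a3 and Col6a3 no longer passed in DKO mice under that scaling (limma adjusted p of 0.0531 to 0.504). In bulk tissue, more cells of a type and more RNA per cell cannot be told apart.

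The call was shared by 17 genes, 15 higher and 2 lower in basal forebrain, with 0 in opposite directions. Of all tested genes 28.8% passed in both genotypes in 1 direction, 12.6% higher and 16.1% lower. The 17 were 85% of the 20 DKO genes and 70.8% of the 24 Con genes, where over all genes the shares were 75.2% and 59.5%. Mouse by mouse, 19 of the 39 genes were higher in basal forebrain in 6 of 6 mice, where 21.3% of all tested genes were, and 3 were lower in 6 of 6, where 26.3% of all genes were. Those 3 were Col19a1, Col8a2 and Col4a4. Without both DKO mice that read as female, 14 genes passed, 13 higher and 1 lower, and 12.8% of all genes. That fit holds 1 DKO array per region, which is assumed to vary as the Con arrays do. It kept 12 of the 20 calls and gained Col1a1 and Col6a1, while Col4a2, Col4a4, Col5a1, Col5a3, Col6a3, Col6a5, Col7a1 and Col8a2 no longer passed (limma adjusted p of 0.0799 to 0.508).

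Within Con mice region and slide cannot be told apart. With slide as a term in the fit, where its effect rests on the DKO cortex arrays alone, 10 genes passed in Con mice, 9 higher and 1 lower, and 10.6% of all genes. It kept Col11a1, Col11a2, Col18a1, Col19a1, Col1a2, Col2a1, Col3a1, Col6a5 and Col9a2 and gained Col1a1. The other 15 Con calls were lost (limma adjusted p of 0.108 to 0.78), those of Col13a1, Col16a1, Col17a1, Col20a1, Col25a1, Col4a1, Col4a2, Col4a6, Col5a2, Col5a3, Col6a1, Col6a3, Col7a1, Col8a2 and Col9a3. Without Con mouse 1 the Con count was 13, 11 higher and 2 lower, with 25.2% of all genes, and 11 calls were lost. Those were Col11a2, Col13a1, Col17a1, Col20a1, Col2a1, Col3a1, Col4a1, Col5a2, Col5a3, Col6a3 and Col9a3 (limma adjusted p of 0.0638 to 0.161). Within slide 1 the DKO comparison kept 17 of its 20 genes and gained Col1a1, while Col5a3, Col6a3 and Col8a2 no longer passed (adjusted p = 0.185, 0.14 and 0.0843 by limma), and 29.9% of all genes passed.

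**Figure D1:**
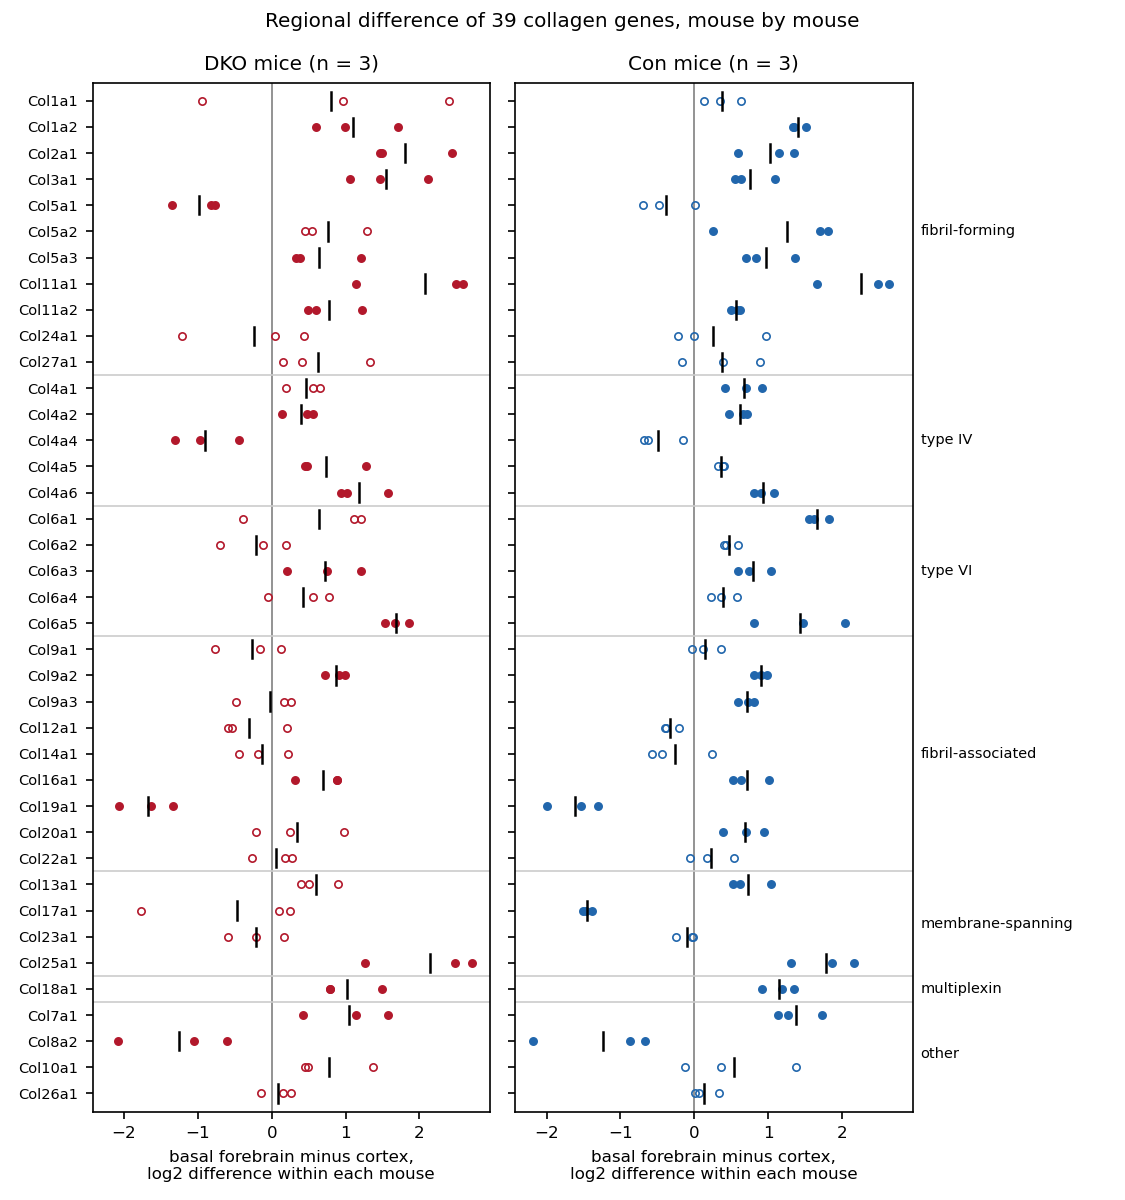
Regional difference of the 39 tested collagen genes. Each point is 1 mouse (basal forebrain minus cortex, log2), the black bar is the mean of 3 mice, filled points mark genes that passed by limma over all genes in that genotype, and grey lines part the structural groups. Col11a1 and Col25a1 lie farthest to the right and Col19a1 far to the left in both panels, while Col17a1 and Col1a1 of DKO mice are spread across 0.

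Sequences upstream of the start are shown for 4 genes, because these carry the comparison: Col9a2, with the smallest p of the collagen genes in both genotypes, Col11a1 and Col3a1, which were higher in basal forebrain, and Col19a1, which was lower. Each line is the 250 bases before the annotated start in RefSeq (GRCm38.p6), on the strand of the gene, 5′ to 3′. Capitals mark 3 motifs: the TATA box letters TATAAA, the box known by its letters CCAAT, and the GC box letters GGGCGG. Both strands were searched, so that the GC box also stands as CCGCCC, and the second motif also as ATTGG. No marked motif overlaps another.
Col9a2, chr4:121039316-121039565, plus strand: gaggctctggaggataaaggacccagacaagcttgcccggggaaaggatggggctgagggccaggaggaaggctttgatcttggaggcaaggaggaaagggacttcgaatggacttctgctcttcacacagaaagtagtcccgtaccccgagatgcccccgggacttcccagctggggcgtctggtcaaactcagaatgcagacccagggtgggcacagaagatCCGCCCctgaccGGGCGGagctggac
Col11a1, chr3:114030290-114030539, plus strand: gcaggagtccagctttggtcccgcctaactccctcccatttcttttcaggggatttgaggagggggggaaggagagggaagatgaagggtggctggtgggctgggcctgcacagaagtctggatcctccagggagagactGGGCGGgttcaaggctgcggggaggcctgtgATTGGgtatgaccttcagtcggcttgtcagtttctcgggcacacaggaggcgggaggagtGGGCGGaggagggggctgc
Col3a1, chr1:45311288-45311537, plus strand: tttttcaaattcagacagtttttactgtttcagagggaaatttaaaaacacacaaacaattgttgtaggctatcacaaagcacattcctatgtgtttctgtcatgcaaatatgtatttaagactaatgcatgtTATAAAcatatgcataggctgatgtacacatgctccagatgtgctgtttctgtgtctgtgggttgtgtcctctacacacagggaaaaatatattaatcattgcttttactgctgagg
Col19a1, chr1:24587438-24587687, minus strand: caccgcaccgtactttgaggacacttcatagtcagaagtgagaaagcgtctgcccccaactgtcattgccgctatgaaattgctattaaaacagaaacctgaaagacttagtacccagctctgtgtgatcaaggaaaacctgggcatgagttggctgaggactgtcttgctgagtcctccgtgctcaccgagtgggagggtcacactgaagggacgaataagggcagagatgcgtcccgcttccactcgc
Col9a2 held GGGCGG 26 bases (on the minus strand) and 14 bases before its start, and Col11a1 held it 110 and 19 bases before. Col3a1 held TATAAA 117 bases before its start and Col19a1 none of the 3 motifs. A window was listed for 34 of the 43 collagen genes, and the first listed was read where a gene had more. GGGCGG was in 20 of these 34 and in 12 of the 14 windows of genes that were higher in basal forebrain in both genotypes, CCAAT in 12 and 8, and TATAAA in 5 and 2. Over all 32851 windows of the table the shares were 32.7% for GGGCGG, 33.8% for CCAAT and 12.4% for TATAAA. A match is a description of the letters and not a bound site.

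Fibril-forming collagens, the rope-like collagens of types I, II, III, V and XI with the related Col24a1 and Col27a1, were mostly higher in basal forebrain where they passed. Of 11 genes 6 were higher and 1 lower in basal forebrain in DKO mice, and 7 higher and 0 lower in Con mice. Col11a1, a chain of the thin type XI fibrils known from cartilage, was read by a probe at chr3:113922153-113922211 (positions of probes are mm9, as in the files). It lay at -1.77, -0.34 and -0.27 in basal forebrain of DKO mice 1, 2 and 3 and at -2.91, -2.84 and -2.86 in their cortex. In Con mice it lay at -0.35, -0.04 and -0.94 in basal forebrain and at -2.83, -2.67 and -2.61 in cortex. No basal forebrain array overlapped a cortex array, and the cortex arrays lay close together while those of basal forebrain spread widely. The difference was 2.08 (SE 0.34, adjusted p = 0.000538) in DKO and 2.26 (SE 0.34, adjusted p = 0.000274) in Con mice by limma.

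Col3a1 makes type III collagen, the fine fibrils that run beside type I in vessel walls and meninges (probe at chr1:45405589-45405648). In DKO mice it lay at -1.02, -0.44 and -0.97 in basal forebrain and at -2.49, -2.57 and -2.04 in cortex. Con mice had it at -0.42, -0.89 and -0.65 in basal forebrain and at -1.51, -1.51 and -1.20 in cortex. The regions did not overlap in either genotype. The difference was 1.55 (SE 0.19, limma adjusted p = 6.84e-05) in DKO and 0.76 (SE 0.19, adjusted p = 0.00721) in Con mice. Without Con mouse 1 the Con difference no longer passed (0.59, limma adjusted p = 0.0963).

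Type I collagen, the main fibril of meninges and scar, is built from the chains of Col1a1 and Col1a2. The pair did not give the same calls. Col1a2 (chr6:4490619-4490678) lay at 2.52, 3.10 and 2.19 in DKO basal forebrain and at 1.53, 1.39 and 1.59 in DKO cortex. Con mice had 2.72, 2.50 and 2.99 in basal forebrain and at 1.21, 1.15 and 1.65 in cortex. It was higher in basal forebrain in every mouse, by 1.10 (SE 0.21, limma adjusted p = 0.00146) in DKO and 1.40 (SE 0.21, adjusted p = 0.000255) in Con mice.

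Col1a1 (chr11:94813075-94813134) passed in neither genotype. It lay at -0.21, 1.01 and -0.27 in DKO basal forebrain and at -1.17, -1.40 and 0.68 in DKO cortex. The Con arrays read 0.19, -0.14 and 0.45 in basal forebrain and at -0.45, -0.49 and 0.32 in cortex. The cortex array of DKO mouse 3, on slide 2, stood above the other 2 DKO cortex arrays, both on slide 1. The regional difference was 0.81 (SE 0.49, limma adjusted p = 0.214) in DKO and 0.37 (SE 0.49, adjusted p = 0.544) in Con mice. Within slide 1 the DKO difference was 1.46 and passed (adjusted p = 0.0202 by limma). With slide in the fit the Con difference was 2.33 and passed (adjusted p = 0.0308 by limma). Another 2 Col1a1 probes above background on every array gave 0.80 and 0.77 in DKO and 0.41 and 0.68 in Con mice.

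The cartilage chain Col2a1, chief component of type II fibrils, was near the detection limit. It was well above background on all 3 arrays of both basal forebrain groups and of Con cortex and on 0 of 3 arrays of DKO cortex. Col2a1 averaged -5.05 ± 0.46 in DKO basal forebrain and -6.85 ± 0.50 in DKO cortex (SD, n = 3 mice). For a bound, each cortex array was set no lower than its dimmest signal well above background. Under the main processing Col2a1 was then at least 2.51-fold higher in DKO basal forebrain. That bound was not tested and need not hold under other processing. The fitted difference, which uses the dim DKO cortex signals as measured, was 1.80 (SE 0.31, limma adjusted p = 0.000782). Over 14 alternative settings the fitted DKO difference ran from 0.35 to 2.44, against 1.80, and it passed in all 14. In Con mice the difference was 1.03 (SE 0.31, adjusted p = 0.0165 by limma).

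The remaining fibril-forming chains were mixed. Col11a2, the second type XI chain, was higher in basal forebrain by 0.77 in DKO and 0.56 in Con mice, and Col5a3, a minor type V chain, by 0.64 and 0.97 (limma adjusted p = 0.00972, 0.0353, 0.0371 and 0.00417 in that order). The DKO call of Col5a3 held in 7 of 15 alternative settings, and the Con call of Col11a2 in 5 of 13. Another Col11a2 probe gave 0.13 in DKO and -0.28 in Con mice, so its probes did not point one way in Con mice. Col5a2, which lies next to Col3a1 on chromosome 1 on the other strand, passed only in Con mice (1.25, limma adjusted p = 0.0103). In DKO mice its difference was 0.76 (limma adjusted p = 0.0959). A dimmer Col5a2 probe, above background on 7 arrays, gave -0.66 in Con and 0.095 in DKO mice. Col5a1, the main type V chain that sets fibril width, was lower in DKO basal forebrain by limma (-0.98, SE 0.20, adjusted p = 0.00267) and did not pass in Con mice (-0.39, adjusted p = 0.127). Col24a1 and Col27a1 passed in neither.

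Type IV collagen forms the network of every basement membrane, in brain chiefly that of vessels and of the pial surface. Its main chains are encoded by Col4a1 (chr8:11199009-11199068) and Col4a2 (chr8:11448840-11448899), neighbours that run in opposite directions on chromosome 8. Col4a2 lay at 0.15, 0.45 and 0.32 in DKO basal forebrain and at 0.01, -0.12 and -0.16 in DKO cortex. In Con mice it lay at 0.27, 0.23 and 0.34 in basal forebrain and at -0.44, -0.43 and -0.13 in cortex. The regions did not overlap, and the difference passed in DKO (0.40, SE 0.11, limma adjusted p = 0.0119) and in Con mice (0.61, SE 0.11, adjusted p = 0.000815). With each array set against its median in place of the 75th percentile the DKO difference was 0.11 (limma adjusted p = 0.504).

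Col4a1 lay at 0.28, 0.81 and 0.61 in DKO basal forebrain and at 0.09, 0.16 and 0.06 in DKO cortex. The Con arrays read 0.48, 0.33 and 0.65 in basal forebrain and at -0.44, -0.37 and 0.25 in cortex. Basal forebrain was higher in 6 of 6 mice. The difference was 0.46 (SE 0.18, limma adjusted p = 0.0556) in DKO and 0.68 (SE 0.18, adjusted p = 0.00843) in Con mice. With the mouse as a block in the fit, which pairs the 2 regions of a mouse, the DKO difference passed (adjusted p = 0.0178 by limma), and so did that of Col13a1 (0.60, adjusted p = 0.0176).

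The X-linked pair Col4a5 and Col4a6 lie next to each other on opposite strands and supply the chains of smooth muscle and epithelial basement membranes. Col4a6 was higher in basal forebrain in both genotypes, by 1.18 in DKO (SE 0.18, limma adjusted p = 0.00037) and 0.93 in Con mice (SE 0.18, adjusted p = 0.00164). Col4a5 passed in DKO mice (0.73, SE 0.16, adjusted p = 0.00434 by limma) and not in Con mice (0.37, SE 0.16, adjusted p = 0.0816), while it was higher in basal forebrain in 6 of 6 mice. Another Col4a5 probe gave 0.36 and -0.08. Col4a4 ran the other way, at -0.91 in DKO (SE 0.23, limma adjusted p = 0.00778) and -0.49 in Con mice (SE 0.23, adjusted p = 0.0896). Without DKO mouse 1 the Col4a4 difference was -0.71 (adjusted p = 0.0599 by limma).

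Type VI collagen makes beaded filaments between cells and basement membranes from Col6a1, Col6a2 and another chain such as Col6a3. Col6a3 was higher in basal forebrain by 0.72 in DKO and 0.79 in Con mice (limma adjusted p = 0.0402 and 0.0222), and Col6a5, a chain that can take its place, by 1.69 and 1.43 (limma adjusted p = 0.00127 and 0.00302). The DKO call of Col6a3 held in 3 of 15 alternative settings. Its dimmer probes, above background on 11 and 7 arrays, gave 0.29 and 0.97 in DKO and -0.36 and 0.39 in Con mice. Col6a1 passed in Con mice alone. Col6a1 lay at 1.01, 2.75 and 2.09 in DKO basal forebrain and at 1.41, 1.55 and 0.97 in DKO cortex. In Con mice it lay at 2.35, 2.77 and 2.54 in basal forebrain and at 0.80, 0.95 and 0.91 in cortex. The low basal forebrain value belonged to DKO mouse 1. The difference was 0.64 (SE 0.32, limma adjusted p = 0.137) in DKO and 1.67 (SE 0.32, adjusted p = 0.00161) in Con mice. Col6a2 and Col6a4 passed in neither genotype.

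Among fibril-associated collagens, which coat fibrils rather than form them, the 2 regions differed in both directions. Col9a2, a chain of the type IX collagen that decorates type II fibrils, had replicates close together (chr4:120727698-120727757). It lay at 0.74, 0.86 and 0.71 in DKO basal forebrain and at 0.02, -0.14 and -0.20 in DKO cortex. Con mice had 0.86, 0.68 and 0.86 in basal forebrain and at -0.12, -0.12 and -0.05 in cortex. The regions were far apart against this spread. The difference was 0.88 (SE 0.09, limma adjusted p = 1.09e-05) in DKO and 0.90 (SE 0.09, adjusted p = 9.95e-06) in Con mice.

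Of the chains that join Col9a2 in type IX collagen, only Col9a3 shared its call, and in Con mice alone. Col9a1 differed by -0.26 in DKO and 0.15 in Con mice, and passed in neither (limma adjusted p = 0.336 and 0.572). Col9a3 differed by -0.02 in DKO mice (adjusted p = 0.942 by limma) and passed in Con mice (0.71, adjusted p = 0.0104).

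Col19a1, which neurons make in mouse brain, had the smallest p among the collagens that were lower in basal forebrain (chr1:24271315-24271374). It lay at -2.79, -1.99 and -2.20 in DKO basal forebrain and at -0.72, -0.65 and -0.57 in DKO cortex. Con mice had it at -1.74, -2.01 and -2.47 in basal forebrain and at -0.43, -0.47 and -0.47 in cortex. The difference was -1.68 (SE 0.20, limma adjusted p = 6.01e-05) in DKO and -1.62 (SE 0.20, adjusted p = 8.11e-05) in Con mice, and another Col19a1 probe gave -1.92 and -2.16. Col9a1 is its neighbour on chromosome 1, on the other strand. Col16a1, which binds fibrils in skin and vessel walls, was higher in basal forebrain by 0.69 and 0.72 (limma adjusted p = 0.00374 and 0.00264), and Col20a1 passed in Con mice alone (0.68, limma adjusted p = 0.04). Col12a1, Col14a1 and Col22a1 passed in neither.

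Of the 4 membrane-spanning collagens, Col25a1 had the largest regional difference in DKO mice (chr3:129885684-129885743). Col25a1 is a neuronal collagen whose shed part was found in amyloid plaques of human brain. It lay at -1.89, -0.97 and -1.11 in DKO basal forebrain and at -3.14, -3.45 and -3.82 in DKO cortex. In Con mice it lay at -1.92, -1.39 and -2.59 in basal forebrain and at -3.78, -3.55 and -3.90 in cortex. All basal forebrain arrays were above all cortex arrays. The difference was 2.15 (SE 0.31, limma adjusted p = 0.000216) in DKO and 1.78 (SE 0.31, adjusted p = 0.000776) in Con mice, and another probe gave 0.79 and 1.15. With slide in the fit the Con difference was 1.26 (limma adjusted p = 0.189).

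Col17a1, the collagen of hemidesmosomes, followed the slides at the probe read. It lay at -5.19 and -4.48 in cortex of DKO mice 1 and 2 on slide 1, and at -3.13 in cortex of DKO mouse 3 and -3.31, -3.42 and -2.97 in Con cortex on slide 2. In basal forebrain, all on slide 1, it lay at -4.94, -4.38 and -4.90 in DKO and at -4.70, -4.88 and -4.48 in Con mice. Its regional call in Con mice (-1.46, SE 0.40, limma adjusted p = 0.0118) turned to 0.25 with slide in the fit. Another Col17a1 probe, above background on 11 arrays, gave regional differences of -0.685 in DKO and -0.598 in Con mice. At that probe DKO minus Con in cortex was -0.136. Col13a1, a collagen of neuromuscular and cell-matrix junctions, passed in Con mice (0.72, limma adjusted p = 0.0268, a call held in 5 of 13 alternative settings), and another Col13a1 probe gave -0.83 there. Col23a1 passed in neither.

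Col18a1, the multiplexin of basement membranes from which endostatin is cut, was higher in basal forebrain by 1.02 in DKO (SE 0.15, limma adjusted p = 0.000209) and 1.15 in Con mice (SE 0.15, adjusted p = 8.54e-05). Col7a1, the collagen of anchoring fibrils, was higher by 1.05 and 1.38 (limma adjusted p = 0.00671 and 0.00114). Col8a2, a network collagen known from the basement membrane behind the cornea, was lower in basal forebrain, at -1.25 in DKO and -1.24 in Con mice (limma adjusted p = 0.00955 and 0.00837). Col10a1 and Col26a1 passed in neither genotype. Their regional differences were 0.77 and 0.09 in DKO and 0.54 and 0.13 in Con mice, in that order.

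The regions also differed in markers of other tissue layers. The list of meningeal and perivascular fibroblast markers had 15 of its 16 genes on the array, all above background on every array, and its mean level was 0.66 to 1.42 in DKO basal forebrain and 0.03 to 0.64 in DKO cortex, and 0.99 to 1.40 in Con basal forebrain and 0.27 to 0.53 in Con cortex. Of these markers 8 passed higher in basal forebrain of DKO mice and 11 of Con mice, and 0 lower, against 18.5% and 18.4% of all genes higher. The list shares 5 genes with the functional lists that follow. The 10 mural cell markers averaged 0.69 to 1.07 in DKO basal forebrain and 0.26 to 0.53 in DKO cortex, and 0.67 to 0.91 and 0.28 to 0.49 in Con mice. Of these 10, 9 were higher and 1 lower in basal forebrain of DKO mice, and 6 and 4 of Con mice. In each genotype 4 passed higher and 0 lower. The 13 endothelial markers averaged 0.66 to 0.91 and 0.62 to 0.75 in DKO, and 0.48 to 0.58 and 0.33 to 0.58 in Con mice. Of these 13, 10 were higher and 3 lower in basal forebrain of DKO mice, and 7 and 6 of Con mice. In DKO mice 1 passed higher and 0 lower, and in Con mice 2 passed each way. The mean of the 12 choroid plexus markers ran the other way. It was -1.99 to -1.78 in DKO basal forebrain and 0.98 to 1.49 in DKO cortex. In Con mice it was -2.25 to -1.52 in basal forebrain and 0.37 to 1.30 in cortex. Of the 12 markers 10 were lower and 2 higher in basal forebrain in each genotype. The part of these cells in the collagen differences was not tested.

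The genes that process, bind and cut collagen were counted from lists drawn up by function, to be read against all genes, of which 18.5% were higher and 19.8% lower in basal forebrain of DKO mice, and 18.4% and 30% of Con mice. Of the 32 tested enzymes and chaperones that modify collagen chains, 12 were higher and 6 lower in basal forebrain of DKO mice, and 14 and 6 of Con mice. Loxl1, a lysyl oxidase that crosslinks matrix fibres, was higher by 1.58 in DKO and 1.42 in Con mice (limma adjusted p = 2.79e-05 and 6.5e-05), and Adamts3, which trims the ends of procollagen, by 1.70 and 1.87 (limma adjusted p = 0.000128 and 6.15e-05). P3h1, a prolyl hydroxylase, was lower in DKO basal forebrain (-1.20, limma adjusted p = 0.000183), and P3h3 of the same family was higher in Con basal forebrain by 1.18 (limma adjusted p = 0.000216). For these 2 genes the difference in the other genotype is not given here. Of the 32 genes 0 were shown to have a regional difference that differs between genotypes. Medians of this list were 0.28 in both genotypes.

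Of 10 collagen receptors 4 were higher in DKO and 3 in Con basal forebrain, and 0 were lower in either. Adgrg1, the receptor for type III collagen in the developing mouse cortex, was higher by 0.71 in DKO and 0.67 in Con mice (limma adjusted p = 1.84e-05 and 3.28e-05). The collagen-binding integrin Itga11 was higher by 0.57 and 1.07 (limma adjusted p = 0.00846 and 0.000135). Of 21 laminins and other basement membrane partners of type IV collagen 13 were higher and 3 lower in DKO, and 12 and 2 in Con mice. Sparc, a matrix protein that binds collagen, was higher by 0.91 and 1.09 (limma adjusted p = 8.69e-05 and 2.17e-05), and Nid1, which links laminin to type IV collagen, by 0.96 and 0.91 (limma adjusted p = 0.000197 and 0.000274).

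Of 19 proteoglycans and glycoproteins that bind fibrils 9 were higher and 0 lower in DKO, and 10 and 2 in Con mice. The fibril protein Postn was higher by 1.26 and 0.99 (limma adjusted p = 1.02e-05 and 6.52e-05), and Mfap5 of elastic microfibrils by 2.12 and 1.56 (limma adjusted p = 9.84e-05 and 0.000869). Of 12 proteases that cut collagen and their inhibitors 6 were higher and 2 lower in DKO, and 7 and 2 in Con mice. The membrane protease Mmp15 was higher by 1.06 and 0.91 (limma adjusted p = 4.77e-05 and 0.000152).

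No collagen gene passed the threshold between genotypes. In basal forebrain 0 of 39 passed by limma, against 0.0306% of the 26102 genes tested, and 0 had an unadjusted p under 0.05, against 4.39% of all genes. In cortex 0 passed, against 0.0116% of 25798 genes, and 10 had an unadjusted p under 0.05, against 18.9%. With both regions of a mouse averaged 0 passed, against 0.156% of 26959 genes, and 12 had an unadjusted p under 0.05, against 10.7%. The median difference of DKO minus Con over the 39 genes was -0.26 in basal forebrain, -0.14 in cortex and -0.23 over both, beside 0.00, -0.05 and -0.02 over all genes. With 1 mouse left out these medians ran from -0.39 to -0.09 in basal forebrain, -0.18 to -0.06 in cortex and -0.26 to -0.14 over both, the value of -0.09 coming without DKO mouse 1. With DKO mouse 2 alone against the Con mice, that is without both mice that read as female, the basal forebrain median was 0.02.

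**Figure D2:**
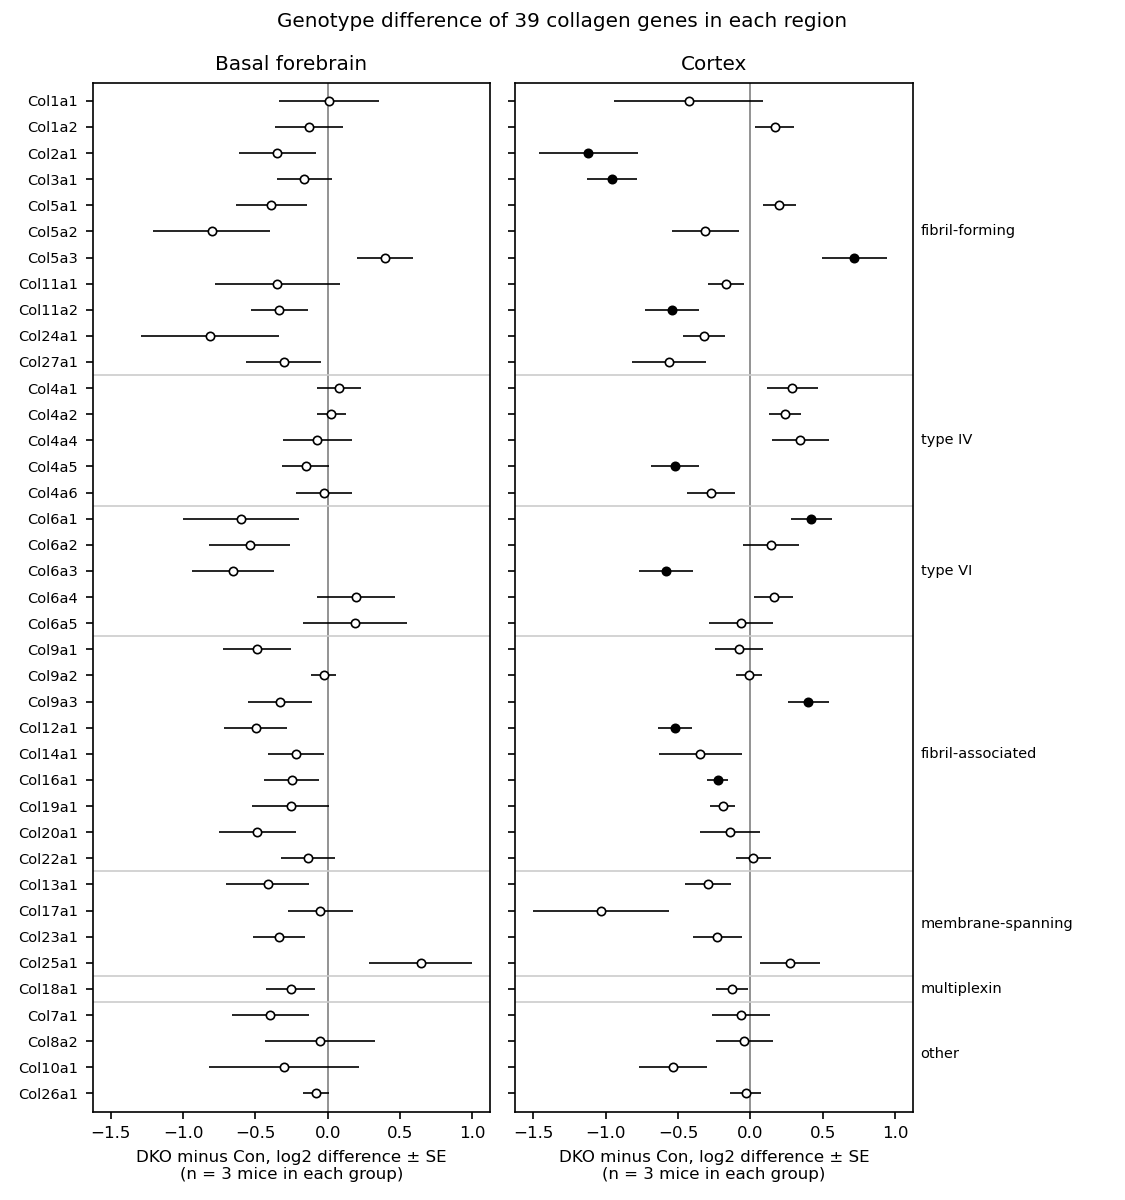
Genotype difference of the 39 tested collagen genes, DKO minus Con on the log2 scale with its standard error from limma (n = 3 mice in each group), for basal forebrain and cortex. Filled points mark an unadjusted p under 0.05, which 0 genes reached in basal forebrain and 10 in cortex. No gene passed after adjustment over all genes, and 32 of 39 points in basal forebrain and 27 of 39 in cortex lie left of 0. Over all tested genes 51.1% of differences were above 0 in basal forebrain and 41.5% in cortex.

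In basal forebrain the 3 DKO arrays lay wholly below the 3 Con arrays for Col9a1, Col11a2 and Col20a1, against 5.32% of all tested genes. For no collagen gene did they lie wholly above, and the share of all genes wholly above is not given here. The 5 smallest p belonged to Col6a3, Col12a1, Col9a1, Col5a3 and Col5a2, each with a limma adjusted p of 0.973. Col6a3 lay at -2.68, -2.04 and -2.52 in DKO and at -1.23, -1.82 and -2.22 in Con basal forebrain, a difference of -0.66 (SE 0.28). Dimmer Col6a3 probes, above background on 11 and 7 arrays, gave 0.162 and 0.135 there, so its probes did not point one way. Col12a1, a fibril-associated collagen of tendon and skin, lay at -2.90, -2.32 and -3.01 in DKO and at -2.02, -2.32 and -2.40 in Con basal forebrain, a difference of -0.50 (SE 0.22). In both genes the groups overlapped.

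In the same region the main fibril and basement membrane chains were not shown to differ between genotypes. The difference was 0.01 (SE 0.35) for Col1a1, -0.13 (SE 0.24) for Col1a2, -0.16 (SE 0.19) for Col3a1, 0.08 (SE 0.15) for Col4a1 and 0.03 (SE 0.10) for Col4a2, with limma adjusted p of at least 0.973. The arrays of the 2 genotypes overlapped for each of these 5. Over 16 alternative settings the Col1a1 difference ran from -0.41 to 0.84.

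In cortex the 3 DKO arrays lay wholly below the 3 Con arrays for 12 of the 39 genes, against 13.5% of all genes, and wholly above for 4, against 8.86%. The 4 were Col5a3, Col6a1, Col9a3 and Col4a4. Col3a1 had the smallest p of all collagen genes: its levels, given above, were lower on all 3 DKO cortex arrays, by a difference of -0.96 (SE 0.17, unadjusted p = 0.000594, limma adjusted p = 0.225). Over 18 alternative settings its difference ran from -1.16 to -0.63 with adjusted p of 0.00136 to 0.58, and it passed in 2. Col12a1 lay at -2.31, -2.53 and -2.47 in DKO and at -1.82, -1.95 and -2.00 in Con cortex, a difference of -0.52 (SE 0.12, limma adjusted p = 0.261). Col16a1 differed by -0.23 (SE 0.07, adjusted p = 0.261 by limma).

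Col2a1 was not well above background on DKO cortex arrays and entered the cortex test through its Con arrays alone. Its measured means were -6.85 in DKO and -5.73 in Con cortex, and it did not pass (limma adjusted p = 0.261). Col5a3 ran the other way. It lay at -2.45, -1.98 and -2.87 in DKO and at -3.30, -3.12 and -3.04 in Con cortex, a difference of 0.72 (SE 0.22, limma adjusted p = 0.261). In both genes the cortex array of DKO mouse 3 was the DKO array nearest to the Con arrays, which shared its slide. Col3a1 had the same pattern, at -2.49 and -2.57 in cortex of DKO mice 1 and 2 and at -2.04 in that of DKO mouse 3.

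Leaving out that mouse changed the cortex count. Without DKO mouse 3, when the 2 DKO arrays were all on slide 1 and the 3 Con arrays all on slide 2, 11 collagen genes passed, 2 higher (Col5a3 and Col6a1) and 9 lower, and 37.4% of all genes passed with them. With DKO mouse 2 alone, on slide 1, 10 passed, and 29.4% of all genes. Within slide 2, with DKO mouse 3 alone against the 3 Con mice, 0 of the collagen genes and 0.103% of all genes passed. In the 2 fits with a lone DKO array that array is assumed to vary as the Con arrays do. Slide and genotype cannot be told apart in the 2 fits that compare slide 1 with slide 2.

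**Figure D3:**
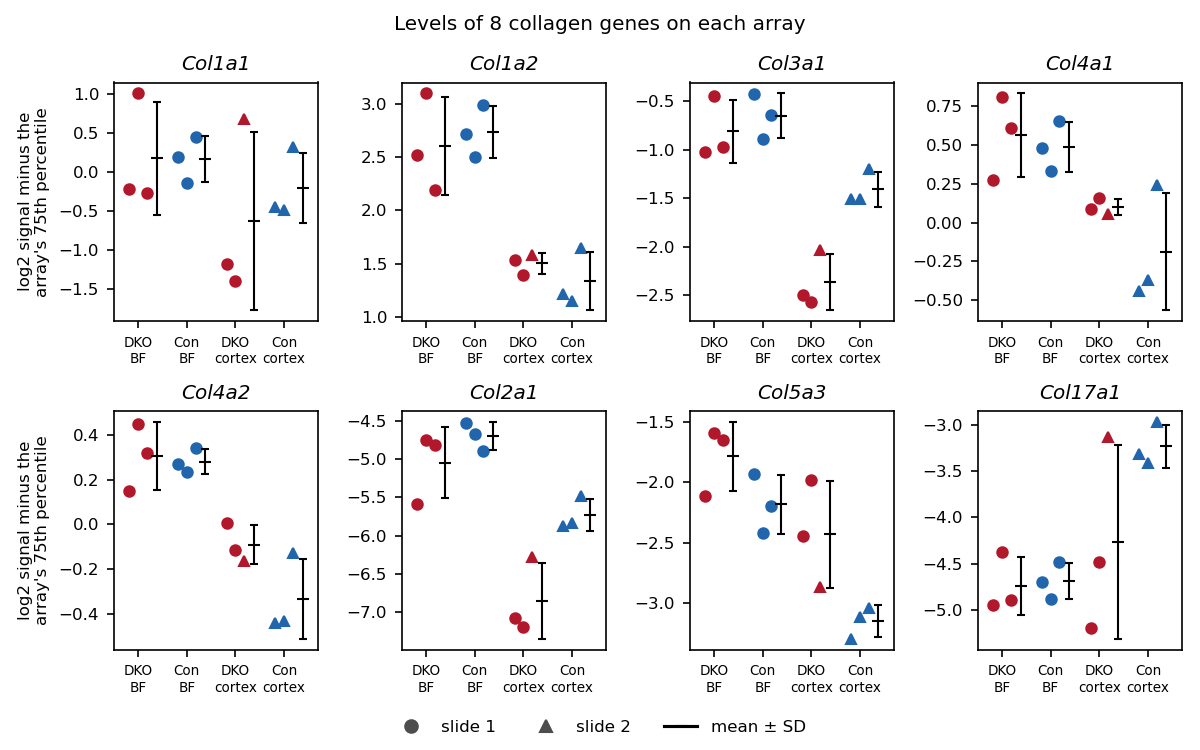
Level of 8 collagen genes on each of the 12 arrays (log2 intensity relative to that array's 75th percentile), with circles for slide 1 and triangles for slide 2, DKO in red and Con in blue, BF for basal forebrain, and black bars for mean ± SD of 3 mice. Col1a1, Col2a1, Col3a1 and Col17a1 show the DKO cortex array on slide 2 above the other DKO cortex arrays. Col1a2 and Col3a1 show basal forebrain above cortex in both genotypes.

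The interaction, that is how far DKO minus Con in basal forebrain exceeds DKO minus Con in cortex, passed for 0 of 39 collagen genes and 0% of all 26959 genes by limma, with 3 collagen genes at an unadjusted p under 0.05, against 8.36% of all genes. The 3 smallest p belonged to Col3a1 (0.80, SE 0.27), Col9a3 (-0.73) and Col6a1 (-1.02), each with a limma adjusted p of 0.562. For Col6a1 the DKO arrays averaged 1.95 ± 0.88 against 2.55 ± 0.21 in Con basal forebrain, and 1.31 ± 0.30 against 0.89 ± 0.08 in Con cortex (SD, n = 3 mice each). A gene that passed the regional test in 1 genotype and not in the other was therefore not shown to differ between genotypes. Col17a1 alone passed this test without DKO mouse 3 (1.63, limma adjusted p = 0.0432), when 5.76% of all genes passed.

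The genes around collagen gave the same count of 0 in the genotype comparisons: 0 of the enzymes and chaperones, receptors, basement membrane partners, fibril-binding proteins, proteases and inhibitors passed in basal forebrain, in cortex or over both regions by limma. Sparc was higher on all 6 DKO arrays than on the Con arrays of the same region, by 0.35 in basal forebrain and 0.53 in cortex (SE 0.12 and 0.11), and had an adjusted p of 0.0792 over both regions (limma). Serpinh1, the chaperone of procollagen in the endoplasmic reticulum, differed by -0.76 in cortex (SE 0.26, limma adjusted p = 0.261). Bgn, a proteoglycan bound to fibrils, differed by -0.85 there (SE 0.21, limma adjusted p = 0.261). Mmp8, the collagenase of neutrophils, differed by 0.95 in basal forebrain and 0.92 in cortex (limma adjusted p = 0.973 and 0.261).

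The list averages of blood cell markers did not overlap between genotypes. The 13 peripheral leukocyte markers averaged -2.58 to -2.29 in DKO and -4.16 to -3.80 in Con basal forebrain, and -2.81 to -2.21 in DKO and -4.19 to -3.76 in Con cortex. Of the leukocyte markers 8 of the 12 tested were higher in DKO basal forebrain and 7 of the 11 tested in DKO cortex, and by limma 2 and 1 passed. The 7 erythroid markers averaged 3.09 to 4.75 in DKO and 1.55 to 1.85 in Con basal forebrain, and 2.83 to 4.0 in DKO and 1.55 to 1.98 in Con cortex. Endothelial averages, given with the regions above, lay higher in DKO than in Con mice in both regions without overlap, while 0 of the 13 markers passed by limma. Of the 13, 11 were higher and 2 lower in DKO basal forebrain, and 8 were higher and 5 lower in DKO cortex. Their median difference was 0.19 in basal forebrain and 0.03 in cortex, where Vwf had the largest at 1.75. The fibroblast marker means, also given with the regions above, overlapped between DKO and Con mice in both regions. The part of these markers in the collagen values was not tested.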

How the data were processed

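RNA was hybridised to 12 arrays of the Agilent SurePrint G3 Mouse GE v2 design. Per the file headers, Agilent Feature Extraction 10.7.1.1 produced the deposited processed intensity of each spot, with background subtracted and detrended and no scaling between arrays. The authors' deposited series table repeats these intensities (99.998% equal within 0.01 log2) and adds normalized log2 values whose sorted values are equal on all arrays. These served as an alternative, and 12 flag columns of that table were not used. The method behind them was not given in the sources used here.

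Log2 intensities of unflagged spots were averaged per probe (56568 probes, 37 left out), and each array's 75th percentile was subtracted. RefSeq symbols (GRCm38.p6) named 32972 probes. A gene was tested where 1 group or more had its probe well above background on each of its 3 arrays. Differences were tested, two-sided, with limma 3.58.1 in R 4.3.3 (lmFit, eBayes with trend). Benjamini-Hochberg adjustment ran over all genes of a comparison, at a threshold of 0.05. Each region's genotype comparison used its own 6 arrays, and the others used all 12. Scripts were tested on simulated data. Replicates are separate mice, and their number limits the precision.

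Both regions came from the same 6 mice by the titles. Their deviations from the group means correlated between regions at 0.01, 0.19 and -0.05 in DKO mice 1, 2 and 3 and at 0.20, 0.26 and 0.32 in Con mice. Alternatives changed scaling, background, filter, probe choice, slide, trend, mice and the mouse block.

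The members and lists were chosen with earlier results of these data known. The rule for values per array covered Col1a1, Col1a2, Col3a1, Col4a1 and Col4a2 and the 5 smallest p of a genotype comparison. It also covered the 3 smallest p of the interaction and up to 5 passing genes each way in a regional comparison. Not all of these are given per array. Col9a1, Col5a2, Col16a1, Col9a3, Col6a5, Col8a2, Col5a1 and Col4a4 are given by calls and differences, and Col2a1 by group means. Col6a3 and Col5a3 are given per array in 1 region. Other members are given by calls, and only some of them by differences too. Up to 4 genes by smallest p could be named in each functional list. Col9a2, whose values per array lie outside the rule, was chosen after its values were seen, as were the within-slide fits. Which exon or UTR a probe lies in was not analysed here.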

Additional observations from a re-analysis of the deposited data

How the results depend on the processing

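Of 95 counts of passing collagen genes recomputed under other settings, 90 stayed within 1.5 times the first count and 5 did not, all given here. In the genotype and interaction comparisons the first count was 0, and those among the 90 were 0 against 0. Only the regional comparisons had a first count above 0, so the 90 is not a measure of stability. In cortex the genotype count was 11 without DKO mouse 3 and 10 without DKO mice 1 and 3, against 0, and leaving out any other mouse gave 0. The regional count in Con mice was 10 with slide in the fit and 13 to 19 with 1 Con mouse left out, against 24. The interaction count was 0 to 1 with 1 mouse left out, against 0. In DKO mice the regional count ran from 16 to 21 with 1 mouse left out, against 20. The basal forebrain genotype count and that over both regions stayed at 0.

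Of the genes that passed between regions, 0 of 20 in DKO and 1 of 24 in Con mice changed sign under any setting: Col17a1, at 0.25 with slide in the fit, against -1.46. The other probes of Col11a2, Col13a1, Col5a2 and Col6a3, named above, were not such a setting. Medians over the collagen genes moved by more than 0.15, the spread of array medians within groups, in 16 of 95 refits. The regional median ran from 0.35 to 0.88 in DKO mice and was 0.35 in Con mice with normexp background. Differences that had not passed changed sign as follows. In basal forebrain, DKO minus Con was -0.085 for Col1a1, -0.017 for Col4a1 and -0.068 for Col4a2 with the array median, and 0.22 for Col1a2 with all passing probes averaged. Without DKO mice 1 and 3 it was 0.37 for Col1a2 and 0.21 for Col3a1 there. With 1 mouse left out it ran from -0.41 to 0.23 for Col1a1, -0.378 to 0.077 for Col1a2, -0.046 to 0.221 for Col4a1 and -0.046 to 0.104 for Col4a2. In cortex Col1a1 was 0.88 with slide in the fit and 0.88 within slide 2, against -0.43. Over both regions it ran from -0.424 to 0.024 for Col1a1 and -0.088 to 0.16 for Col1a2 with 1 mouse left out. The interaction was -0.87 for Col1a1 with slide in the fit and -0.36 to 1.31 with 1 mouse left out, and 0.31 for Col1a2 without DKO mice 1 and 3. The cause of these changes was not tested.

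The replicate block by mouse gave 22 passing genes between regions in DKO and 24 in Con mice, and changed the calls of Col4a1 and Col13a1 in DKO mice only. In the genotype comparisons DKO and Con mice share only a number, and with it as a replicate block 0 collagen genes passed in basal forebrain, in cortex and over both regions. Same-numbered mice correlated at 0.04, 0.36 and -0.42 in basal forebrain and 0.00, 0.20 and 0.25 in cortex. The interaction from within-mouse differences also gave 0. With 3 mice in a group and probes near background, as for Col2a1, small differences could not be measured.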
